A study of Mus musculus with 4 samples.

Results

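The wells described here are the mouse morula wells of a study of NKX1-2 in the early embryo. They come from 2 plates, labelled replicate 1 and replicate 2, each with 96 well barcodes. On each plate a deposited table gives the control morpholino to 48 barcodes and the NKX1-2 morpholino to the other 48. Only wells in which 2000 or more genes had a count were used, which left 191 of 192 morula wells, out of 384 wells in the whole series. Of these, 48 control and 48 NKX1-2 wells were on plate 1, and 48 control and 47 NKX1-2 wells on plate 2. The other 2 plates of the series hold blastocyst wells, of which 177 were kept. All embryos were injected with a morpholino, so no uninjected embryo is in the comparison. Strain, age in hours, the dose of the morpholinos and the number of cells or embryos behind a well are not given in the sources used, beyond a label of single-cell RNA. Counts were summed per plate and morpholino, and the plate was the replicate (n = 2), since the labels do not say which wells share an embryo. NKX1-2 and control sums were compared within plate, so the p-values below rest on how far that difference varied between plates. This spread may be technical, and it was estimated largely over many genes together. The same 48 barcodes carry the NKX1-2 morpholino on every plate, so an effect of the barcode or the well position and an effect of the morpholino cannot be told apart.

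A morpholino is a synthetic oligonucleotide that pairs with an RNA and blocks its translation or its splicing, so it need not lower the level of its target RNA. NKX1-2 is a homeobox transcription factor, and the title of the series names it as dependent on Wnt signalling. At the morula stage the cells of the embryo compact against each other, outer cells become polar, and the outer cells turn on trophectoderm genes while the inner cells keep pluripotency genes. Ribosome production and cell division run high at this stage, and transcripts left from the oocyte are still present.

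The control sums held 2157307 counts on plate 1 and 2081917 on plate 2, and the NKX1-2 sums 2372573 and 2398605. The median control well had 44201 counts and 6995 detected genes on plate 1, and 41251 counts and 6501.5 genes on plate 2. NKX1-2 wells were deeper on both plates, with medians of 47763.5 counts and 7136.5 genes on plate 1 and of 48648 counts and 7029 genes on plate 2. Levels are given below in CPM (counts-per-million, with library sizes scaled by TMM), and exact intervals of shares cover counting error only. The labelled stage was checked against marker genes. The pluripotency factor Pou5f1 lay between 99.7 and 150 CPM and the trophectoderm regulator Tfap2c between 192 and 237 CPM over the 4 sums, while Cdx2, which rises later in the trophectoderm, lay between 1.38 and 6.81 CPM. Markers of cells that could be carried along were also measured. The sperm list summed to at most 3 CPM in any sum, with 6 of 10 members at 0 counts (Prm1, Prm3, Tnp1, Tnp2, Akap4 and Smcp). The blood list summed to 11.5 to 17.5 CPM, with Hbb-bt and Cd3e at 0. The fibroblast list summed to 41.3 to 54 CPM, of which Loxl1 made up 36.6 to 49.5, and Col3a1, Dcn, Lum and Pdgfrb were at 0. For cumulus and granulosa cells the sum was 336 to 385 CPM, of which Nr5a2, which embryos also express, made up 251 to 284. Fshr, Inha, Has2, Ptx3, Cyp19a1, Lhcgr and Hsd3b1 were at 0 there. None of the 5 genes of these lists that were tested passed by edgeR, and 1 of them, of the blood list, was lower at an unadjusted p under 0.05.

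The 2 groups also differed in the sex of their wells. On plate 1, Xist without any Y-linked count was seen in 25 of 48 control wells and in 10 of 48 NKX1-2 wells, and Y-linked counts without Xist in 12 and 28 wells. Plate 2 was closer to balance, with 27 and 23 wells of the first kind and 13 and 17 of the second. Xist, the RNA that silences an X chromosome, had 61.8 and 79.5 CPM in the control sums of plates 1 and 2 and 34.3 and 57 CPM in the NKX1-2 sums (log2 fold change -0.65, SE 0.16, adjusted p = 0.00267 by edgeR). Xist did not pass with DESeq2 (adjusted p = 0.737) or by edgeR with the blastocyst plates added (adjusted p = 0.86), fits that are described below. The Y-linked gene Eif2s3y had 17.1 and 21 against 51.2 and 27.2 CPM (log2 fold change 1.02, SE 0.22). The comparison was therefore repeated within wells of 1 sex, which leaves fewer wells per sum. Of the 90 named genes that passed in the fit described below, 36 also passed in the same direction in wells with Xist alone, while 50 did not pass and 1 turned sign. In wells with Y-linked counts alone 42 passed and 42 did not, and the others had no value in these fits. The genes with the largest changes that lost theirs are named below.

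The targeted gene, Nkx1-2 (ENSMUSG00000048528; chromosome 7, 132594878 to 132599637, minus strand, GRCm38), encodes the homeodomain protein itself. It had 0 counts in all 4 sums. A count of 0 allows up to 1.38 and 1.5 CPM in the control sums and up to 1.27 and 1.28 CPM in the NKX1-2 sums of plates 1 and 2 (3 counts per sum). At this depth the RNA could not be detected in either group, so no check of the labels is possible from it.

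The question was which transcripts changed with the NKX1-2 morpholino, judged against control wells on the same plate. In the edgeR quasi-likelihood test of the 4 morula sums, with the plate as a block and p-values adjusted by Benjamini and Hochberg, 834 of 10383 genes reached an adjusted p below 0.05, which is 8.03% of those tested. Of these, 472 were higher (4.55% of tested genes) and 362 lower (3.49%) in NKX1-2 wells. The words rose and fell are used below for genes that passed this test. Most of the changes were small. Their median size in log2 units was 0.64, and 130 genes rose and 90 fell by more than 1. With 4 sums this fit has 1 residual degree of freedom per gene, and genes of a like level share their estimate of the spread. Its calls thus depend on that shared estimate, for the median gene on it alone. The SE beside each fold change was computed from the same test and has the same limit. Obox8, with log2 fold changes of 0.96 on plate 1 and 2.33 on plate 2, has an SE of 0.15. DESeq2 on the same sums called 38 genes (0.366%), 20 higher and 18 lower. When the blastocyst plates also entered the estimate of the spread, in a fit of 8 sums, edgeR called 60 of 10873 genes (0.552%), 30 higher and 30 lower, of which 59 were among the 834. A group of 27 genes, 13 higher and 14 lower, passed in all 3 fits. It was formed after the values were seen, and these genes are described first.

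**Figure D1:**
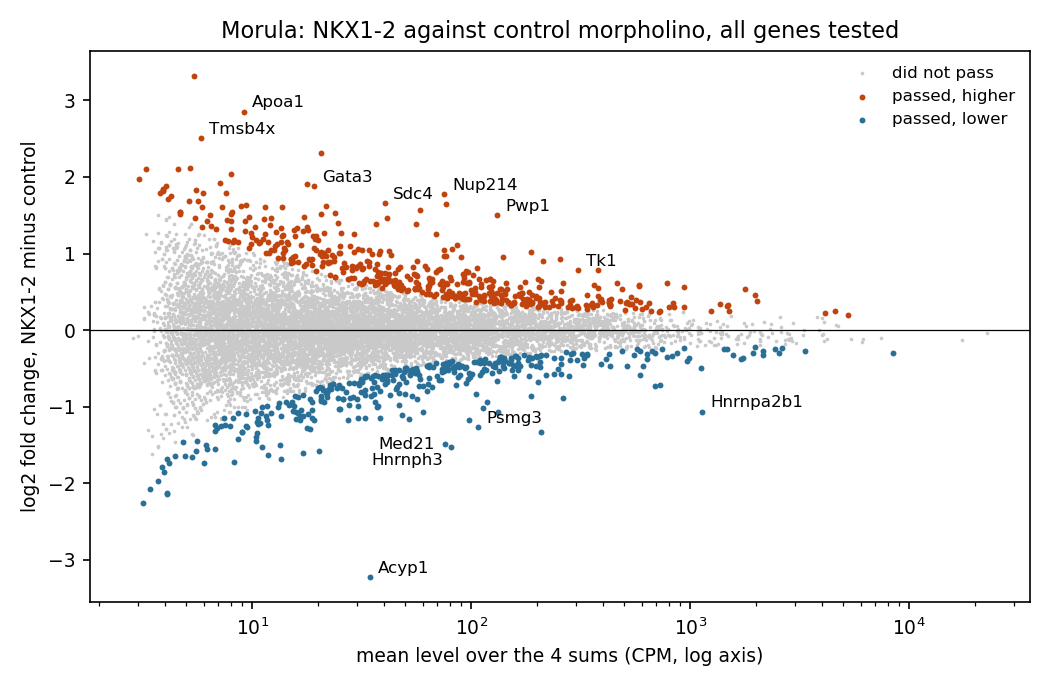
Each point is 1 of the 10383 genes tested, with its mean level over the 4 morula sums (CPM, log axis) and its log2 fold change, NKX1-2 minus control. Coloured points had an adjusted p below 0.05 by edgeR (472 higher, 362 lower), and Acyp1 at -3.23 lies apart from the other genes of its level.

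Acyp1, which encodes an acylphosphatase, a small enzyme that cleaves acyl phosphates, fell furthest of all genes tested. Its gene spans chromosome 12, 85272398 to 85288438, on the minus strand (GRCm38). The control sums had 53.5 and 71.5 CPM on plates 1 and 2, and the NKX1-2 sums 7.62 and 5.53 CPM. Both NKX1-2 sums were far below both control sums. The log2 fold change was -3.23 (SE 0.25, adjusted p = 4.89e-35, edgeR). The fall was also seen in the share of wells with a count. On plate 1, 41 of 48 control wells (85.4%, exact 95% interval 72.2 to 93.9) had an Acyp1 count, against 15 of 48 NKX1-2 wells (31.2%, 18.7 to 46.3). On plate 2 it was 44 of 48 (91.7%, 80 to 97.7) against 8 of 47 (17.0%, 7.65 to 30.8). With each well thinned to 26693 counts, the shares were 73.2% and 85.0% in control and 15.9% and 12.8% in NKX1-2 wells, so it was as large at equal depth. The median NKX1-2 well had no Acyp1 count on either plate. The log2 fold change of Acyp1 was -3.07 in wells with Xist alone and of -3.36 in wells with Y-linked counts alone, and it passed under each of the 15 other settings. Because it had the lowest fold change, the bases directly before its start are shown here, on the minus strand, from RefSeq (chr12:85288439-85288590, GRCm38.p6), up to the next annotated exon.
Acyp1: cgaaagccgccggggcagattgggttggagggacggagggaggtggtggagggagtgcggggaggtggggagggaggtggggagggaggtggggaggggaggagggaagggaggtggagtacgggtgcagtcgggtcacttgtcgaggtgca
The window holds no TAATTA, the core letters that many homeodomain proteins prefer, and no CTTTGAT, the letters of TCF and LEF factors, on either strand. That says only that these letters are not in this stretch.

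Hnrnpa2b1 (chromosome 6, 51460932 to 51469894, minus strand), an abundant splicing and RNA transport factor, had 1442 and 1608 CPM in the control sums and 674 and 787 CPM in the NKX1-2 sums. Its log2 fold change of -1.06 (SE 0.08, adjusted p = 5.97e-36) was the one with the smallest p of all genes. Counts were present in every well, so that the shift could be followed by well. On plate 1, control wells ranged from 825 to 2355 CPM of the single well with a median of 1447, and NKX1-2 wells from 262 to 1292 with a median of 628. On plate 2, the medians were 1533 and 715, and the ranges 814 to 2421 and 344 to 1721. The bulk of the wells moved, and the ranges still overlapped. Hnrnph3 (chromosome 10, 63014664 to 63024217, minus strand), a splicing regulator of the hnRNP H family, had 114 and 124 CPM in control and 39.8 and 43.4 in NKX1-2 sums (log2 fold change -1.52, SE 0.15). All 96 control wells had an Hnrnph3 count, against 35 of 48 and 36 of 47 NKX1-2 wells, and at a fixed depth the shares were 95.1% and 92.5% against 50% and 70.2%. The nuclear coactivator Rbm14 fell from 176 and 184 to 84.6 and 86.8 CPM (log2 fold change -1.07, SE 0.12). Of its transcript sequence 18.7% occurs in other genes, and 18.6% of its exonic bases overlap exons of another gene on the same strand. Malat1, a nuclear long noncoding RNA of splicing speckles, fell from 837 and 882 to 451 and 596 CPM (-0.73, SE 0.08).

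Among subunits of larger machines that fell, Med21 (chromosome 6, 146642547 to 146650732, plus strand) belongs to Mediator, the complex that links transcription factors to RNA polymerase II. It had 97.8 and 127 CPM in control and 41.9 and 37.4 CPM in NKX1-2 sums (log2 fold change -1.49, SE 0.15). Of the transcript sequence of Med21, 18.55% occurs in other genes, and 15.5% of its exonic bases overlap exons on the opposite strand. Psmg3 (chromosome 5, 139823592 to 139826885, minus strand), a chaperone for proteasome assembly, fell from 136 and 168 to 57.5 and 68.9 CPM (-1.26, SE 0.13). Both genes fell on both plates. The myosin phosphatase subunit Ppp1r12a fell from 142 and 130 to 51.2 and 69.3 CPM (-1.18, SE 0.13), and Eif3e, a subunit of the translation initiation factor eIF3, from 259 and 236 to 160 and 149 CPM (-0.68, SE 0.11). Tmem208 (-1.02), the peptidase gene Thop1 (-0.93), Ly6a (-0.86), Pdrg1 (-0.58) and the predicted gene Gm17300 (-1.33) complete the lower group. Of the transcript sequence of Gm17300, 51.8% occurs in other genes, and of Ly6a 31.9%, so the values of both are uncertain.

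Nup214 rose alike on both plates. It encodes a nuclear pore protein on the cytoplasmic side of the pore and lies on chromosome 2 at 31974436 to 32053975, on the plus strand. The control sums had 36.5 and 31.5 CPM and the NKX1-2 sums 116 and 118 CPM. The sums of a group differed by far less than the groups did. The log2 fold change was 1.78 (SE 0.16, adjusted p = 9.29e-27). At a fixed depth, 58.5% and 45.0% of control wells had a Nup214 count against 93.2% and 91.5% of NKX1-2 wells, and without thinning 81.2% and 66.7% against 95.8% and 97.9%. The bases before its start are shown on the plus strand as the counterpart to those of Acyp1 (chr2:31974200-31974435, GRCm38.p6), ending 14 bases before the RefSeq start, where an annotated exon begins.
Nup214: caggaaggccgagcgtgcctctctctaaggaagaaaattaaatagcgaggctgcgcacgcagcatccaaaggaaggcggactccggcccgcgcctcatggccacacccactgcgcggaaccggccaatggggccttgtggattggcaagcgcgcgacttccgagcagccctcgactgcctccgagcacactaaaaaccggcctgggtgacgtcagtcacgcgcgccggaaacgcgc
Neither TAATTA nor CTTTGAT is in this window.

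Pwp1 (chromosome 10, 85829494 to 85889096, plus strand), a WD-repeat protein of ribosome biogenesis, rose from 63.2 and 73.5 to 202 and 186 CPM (log2 fold change 1.51, SE 0.13). The median well rose from 46.4 to 207 CPM of the single well on plate 1 and from 48.4 to 172 on plate 2, and on plate 2 no NKX1-2 well was without a count. Prpf38a, a spliceosome component, had 28.6 and 33.5 CPM in control and 74.9 and 88 CPM in NKX1-2 sums (1.39, SE 0.17). Arglu1, a splicing coactivator, had 174 and 175 against 321 and 343 CPM (0.93, SE 0.10). The list of splicing and hnRNP genes as a whole is given further below.

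Rab26os, a noncoding RNA named for its position opposite Rab26, rose from 32.8 and 26.5 to 93.9 and 81.2 CPM (log2 fold change 1.56, SE 0.17). Of its exonic bases, 15.7% overlap exons of another gene on the same strand and 0% on the opposite strand. Its log2 fold change was 0.71 in wells with Xist alone (adjusted p = 0.188) and 2.16 in wells with Y-linked counts alone (adjusted p = 7.09e-11), and the difference between these values was not tested. Tk1, the thymidine kinase of nucleotide salvage, had 183 and 272 CPM in control and 377 and 393 CPM in NKX1-2 sums (0.78, SE 0.10). Oaz1, the antizyme that limits polyamine synthesis, rose by 0.58 (SE 0.09), and H3f3b, which encodes the histone variant H3.3, by 0.46 (SE 0.07), from 1650 and 1653 to 2192 and 2370 CPM. The retinol dehydrogenase Rdh10 rose from 151 and 146 to 292 and 264 CPM (0.90), and Hax1, an anti-apoptotic mitochondrial protein, by 0.96. Of the transcript sequence of Hax1, 34.4% is shared with other genes, and of Oaz1 24.1%. The predicted genes Gm33508 (0.78) and Gm26737 (2.32) were also in the higher group. Gm26737 was low, with 10.2 and 3.50 CPM in control and 33.9 and 34.9 CPM in NKX1-2 sums, and 20.3% of its sequence is shared. A count of Gm26737 was seen in 12 of 48 control and 15 of 48 NKX1-2 wells on plate 1, and in 6 of 48 and 19 of 47 on plate 2. The wells of 1 sex are part of the sums by which the 27 genes were chosen, so agreement within them is a description and no independent check. All 27 genes had the same sign in wells with Xist alone, where 23 passed against 2.59% of all genes. Rab26os, Gm26737, Ly6a (-0.41, adjusted p = 0.144) and Eif3e (-0.47, adjusted p = 0.0623) did not pass there. In wells with Y-linked counts alone, 26 had it and passed, against 4.2% of all genes, and Gm26737 had no value.

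Other genes with large changes did not pass in both the DESeq2 fit and the fit of 8 sums. Gata3 (chromosome 2, 9857078 to 9890034, minus strand), a transcription factor of the trophectoderm, had 10.2 and 6 CPM in control and 25.4 and 35.3 CPM in NKX1-2 sums (log2 fold change 1.88, SE 0.29, adjusted p = 1.59e-08). A count was seen in 14 and 8 of 48 control wells, and in 21 of 48 and 35 of 47 NKX1-2 wells. At a fixed depth these were 26.8% and 12.5% against 34.1% and 57.4%. The rise was thus larger on plate 2, and without plate 2 it did not pass (adjusted p = 0.531). More wells of a kind that has Gata3 RNA and more Gata3 RNA per well cannot be told apart in the sums. Sdc4, a cell surface heparan sulfate proteoglycan, showed the opposite order, with 14.3 and 24.5 CPM in control and 74.1 and 48.5 CPM in NKX1-2 sums (1.66, SE 0.20). A single well held 26.9% of the NKX1-2 counts of Sdc4 on plate 1, and without plate 1 the call was lost (adjusted p = 0.59). Sdc4 also did not pass in wells with Xist alone (0.49, adjusted p = 0.697).

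The phosphatase gene Ptpn6, which acts in immune cell signalling, rose from 4.15 and 11 to 30.9 and 25.1 CPM (1.91, SE 0.30). The homeobox gene Obox8 rose from 43.8 and 29 to 85.9 and 150 CPM (1.65, SE 0.15), the peroxisomal reductase Pecr from 7.85 and 13.5 to 32.2 and 33.2 CPM (1.63, SE 0.26), and the ETS factor Elf1 from 10.6 and 10.5 to 26.2 and 34.9 CPM (1.52, SE 0.27). Smpdl3b (1.53), the zinc finger gene Zfp84 (1.48) and Smap1 (1.47) followed. Of the transcript sequence of Smap1, 53% occurs in other genes and its value is uncertain, and a single well held 40.5% of the Zfp84 counts of the NKX1-2 sum on plate 2. Among the genes that fell, the membrane-binding annexin Anxa2 had 39.7 and 21 CPM in control and 14 and 6.38 CPM in NKX1-2 sums (-1.58, SE 0.27). The tetraspanin Tspan17 (-1.60), the lipase-related gene Pnliprp2 (-1.30), Parp4 (-1.27), the lysosomal hexosaminidase gene Hexa (-1.18), Cutc (-1.18) and the tRNA exportin gene Xpot (-1.16) fell as well. Levels of the 2 groups did not overlap for any of them, as for 39.9% of all genes tested (19.3% lower). These genes were chosen for moving alike on both plates, so the separation is a description. Of all 24 genes named for the size of their change, 9 also passed with DESeq2 and 18 in the fit of 8 sums. Ptpn6, Obox8, Zfp84, Smap1, Parp4 and Cutc did not pass in the latter. Fits with only 1 morula plate left beside the blastocyst plates give no independent check, since the plate left had also been used to choose the genes. In them the log2 fold change of Acyp1 was -3.66 without plate 1 and -2.79 without plate 2, and that of Obox8 2.37 and 0.98. In wells with Xist alone, Gata3 (adjusted p = 0.0565), Sdc4, Rab26os, Elf1, Zfp84, Pnliprp2, Hexa and Cutc did not pass and Ptpn6 had no value. In wells with Y-linked counts alone, Smpdl3b, Elf1, Smap1, Tspan17, Parp4 and Cutc did not pass and Zfp84 had no value.

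**Figure D2:**
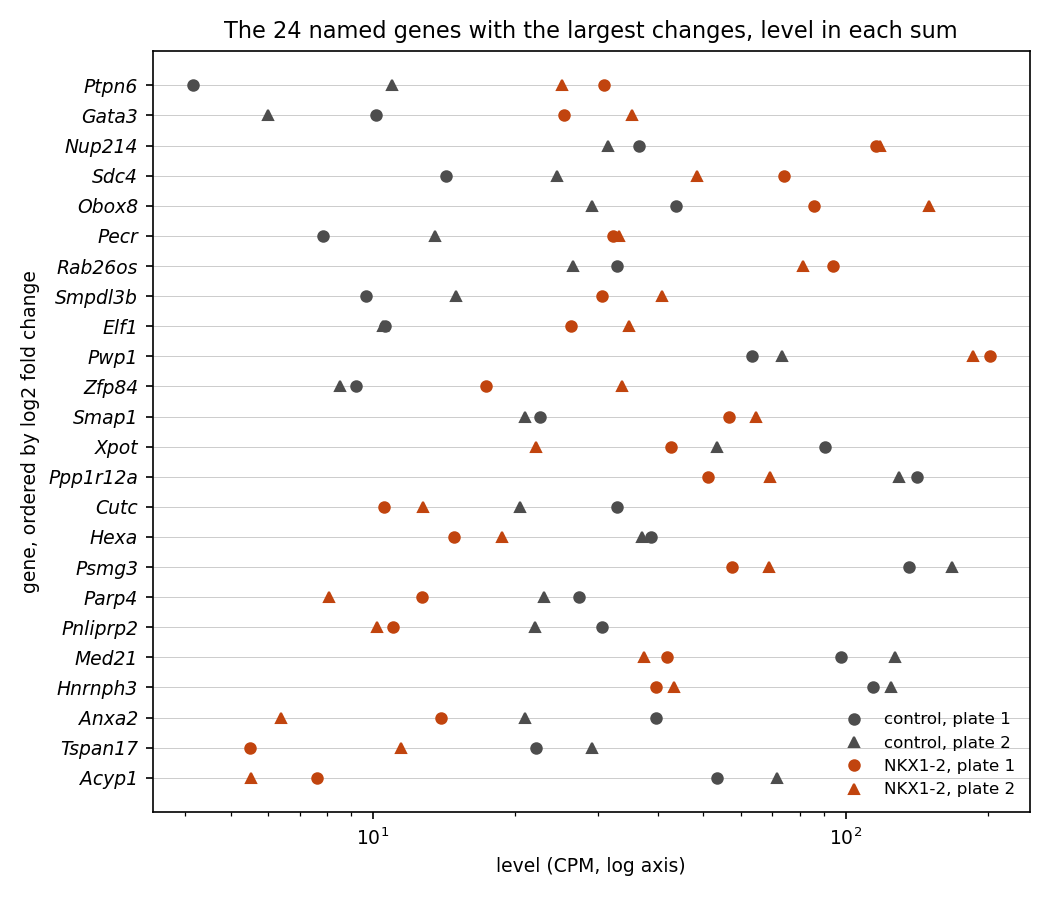
The level (CPM, log axis) in each of the 4 morula sums is plotted for 24 genes that met the rules for naming. They are the 12 with the largest rise and the 12 with the largest fall among genes that met those rules. The rules include a gene name and 20 CPM in 1 group's mean, so larger rises such as that of Apoa1 (2.85) are left out. Control is grey and NKX1-2 orange, with circles for plate 1 and triangles for plate 2. Because genes were chosen for a change in the same direction on both plates, the separation is a description. The NKX1-2 sums of Nup214 lie together (116 and 118 CPM), while those of Obox8 differ between plates (85.9 and 150 CPM).

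Groups that do not overlap are frequent with 2 sums each, and 39.9% of all genes tested showed them (20.6% higher, 19.3% lower). Among the 834 genes that passed, 796 had groups that did not overlap and 829 moved in the same direction on both plates. When the well with most counts was left out of each sum, 686 of them still passed, of 701 genes called in that fit. The share of all tested genes with the same direction on both plates was not taken. A test within plates favours genes that go the same way on both, so these counts describe the calls and do not check them.

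**Figure D3:**
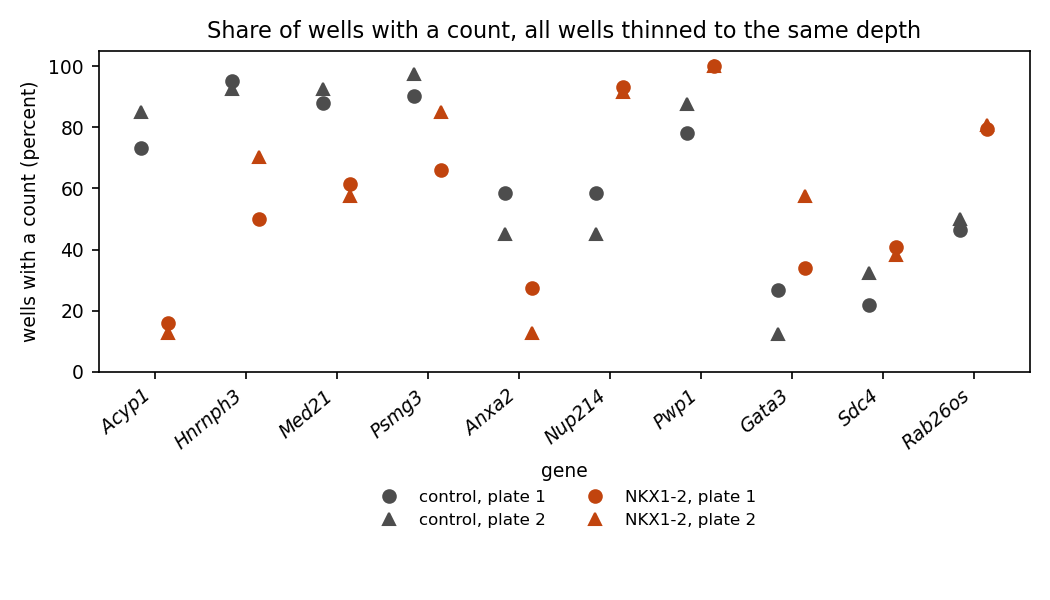
The share of wells with at least 1 count (percent) is plotted for 10 genes at a fixed depth of 26693 counts per well, for each plate and morpholino, with wells below that depth left out. Acyp1 dropped from 73.2% and 85.0% of control wells to 15.9% and 12.8% of NKX1-2 wells, while Nup214 went from 58.5% and 45.0% to 93.2% and 91.5%.

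Wells below the fixed depth numbered 7 and 8 in control and 4 and 0 in NKX1-2 wells on plates 1 and 2, so the thinned shares leave out somewhat more control wells. Some genes of low level were seen in few wells. Tmsb4x, which encodes an actin-sequestering peptide, had 1.38 and 2 CPM in control and 6.77 and 13.2 CPM in NKX1-2 sums (log2 fold change 2.51, SE 0.52). It had a count in 3 and 3 of 48 control wells and in 13 of 48 and 12 of 47 NKX1-2 wells, or 2.4% and 5.0% against 22.7% and 17.0% at a fixed depth. With 3 or 4 counts in each control sum the size of this rise is loosely set.

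The lineage genes of the first cell fate decision were followed as lists. Of 30 trophectoderm genes 20 were tested, 3 rose and none fell, or 15% higher against 4.55% over all genes tested (3.49% lower). The median log2 fold change was 0.10 against -0.00045 over all genes tested. At an unadjusted p under 0.05, 6 were higher and 1 lower. Beside Gata3, these were Fabp3, a fatty acid carrier (25.8 and 27 against 52.5 and 43.8 CPM, log2 fold change 0.86), and Atp1b1, a subunit of the sodium pump that fills the blastocoel (7.38 and 13.5 against 16.9 and 22.5 CPM, 0.93). Gata3 alone of the 3 passed in the fit of 8 sums and none with DESeq2, and 50.1% of the sequence of Fabp3 is shared with other genes. Other trophectoderm genes did not pass. Krt8 had log2 fold change 0.44 (adjusted p = 0.11), Krt18 -0.47 (adjusted p = 0.3), Tead4 -0.03 and Tfap2c -0.22 (adjusted p = 0.203). Cdx2 and Eomes were too low to be tested, with Cdx2 at 1.38 and 4.50 CPM in control and 2.54 and 6.81 in NKX1-2 sums.

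The pluripotency list had 25 members, 19 of them tested, with a median of -0.04. Of these, 2 were higher (10.5%, against 4.55% over all genes) and 2 lower (10.5%, against 3.49%). Tdh, the threonine dehydrogenase of pluripotent cells, rose from 274 and 294 to 357 and 424 CPM (log2 fold change 0.46), and the nuclear receptor Esrrb from 45.2 and 44.5 to 61.4 and 70.6 CPM (0.55). Dppa5a fell from 2715 and 2878 to 2439 and 2104 CPM (-0.30), with 57.2% of its sequence shared, and Klf5 fell by 0.25, with sums that overlapped. None of these 4 passed with DESeq2 or in the fit of 8 sums. The core factors did not pass. Pou5f1 had 99.7 and 150 CPM in control and 104 and 144 CPM in NKX1-2 sums (-0.01, SE 0.12), a value whose sign turned under 6 of the 15 other settings. Nanog had 55.4 and 51 against 67.7 and 65.9 CPM, groups that did not overlap (0.33, adjusted p = 0.223), and Sox2 1.38 and 6 against 3.39 and 10.6 CPM (0.93, adjusted p = 0.26). Of 20 primitive endoderm genes 8 were tested, none rose and 1 fell (12.5%, against 3.49% over all genes). It was P4ha2, a collagen prolyl hydroxylase, which fell by 0.43. P4ha2 did not pass with DESeq2 (adjusted p = 0.952) or in the fit of 8 sums (adjusted p = 0.323). Gata6 had 269 and 258 against 286 and 248 CPM (0.02).

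Wnt signalling passes from Frizzled receptors through beta-catenin to TCF and LEF factors on DNA. Of 42 pathway genes 20 were tested, with none higher and 2 lower (10%, against 3.49% over all genes). The median was -0.13, with 15 of 20 below 0. At an unadjusted p under 0.05, 1 was higher and 3 lower. Tcf7l2, a TCF factor, fell from 80.3 and 87.5 to 47.8 and 63.4 CPM (log2 fold change -0.60, SE 0.15), and Porcn, which lipid-modifies Wnt ligands, from 57.7 and 68 to 46.1 and 41.3 CPM (-0.52). The central components Ctnnb1 (0.17), Gsk3b (0.13), Axin1 (-0.27) and Apc (-0.20) did not pass. Of 20 target genes 6 were tested, and Myc rose from 48.5 and 55.5 to 67.7 and 117 CPM (0.80, SE 0.15), while Ccnd1 had -0.38 (adjusted p = 0.26). The target Axin2, with 0.50 to 1.85 CPM, was too low to be tested. In the Hippo list, 17 of 24 genes were tested with a median of -0.18, and the coactivator Yap1 alone passed, falling from 189 and 180 to 136 and 151 CPM (-0.37). Neither Tcf7l2, Porcn, Myc nor Yap1 passed with DESeq2 or in the fit of 8 sums.

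Genes of the p53 response and apoptosis rose more often than fell. Of 44 genes 35 were tested, 6 rose and none fell, which is 17.1% higher against 4.55% over all genes, with a median of 0.15. At an unadjusted p under 0.05, 9 were higher and 2 lower. Cdkn1a, the cell cycle inhibitor p21, had 174 and 156 CPM in control and 228 and 262 CPM in NKX1-2 sums (log2 fold change 0.57, SE 0.11, adjusted p = 1.24e-05). Pmaip1, the pro-apoptotic protein Noxa, had 11.1 and 9.50 against 29.6 and 21.7 CPM (1.31, SE 0.29), and Btg2, an antiproliferative factor, 1.85 and 3.50 against 12.3 and 5.10 CPM (1.68, SE 0.48). The sestrins Sesn1 (1.12) and Sesn2 (0.71) and the BH3-only protein gene Bcl2l11 (0.73) rose as well. Pmaip1 alone of the 6 passed in the fit of 8 sums (adjusted p = 0.028), and none passed with DESeq2. In wells with Xist alone, Pmaip1 had 0.10 (adjusted p = 0.971) and Cdkn1a 0.25 (adjusted p = 0.677), against 1.76 and 0.64 in wells with Y-linked counts alone, where both passed. The share of wells with Y-linked counts was itself higher in the NKX1-2 group, and its part in these values was not tested. Mdm2, a p53 target that degrades p53, had 24.9 and 20 against 30.5 and 18.3 CPM (0.11, adjusted p = 0.872), Bax 0.10 and Trp53 itself 0.08.

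Genes of ribosome production, DNA replication and mitosis were tested nearly in full. Their shares are to be read against 4.55% higher and 3.49% lower over all genes. Of 106 ribosome biogenesis factors 94 were tested, 8 rose (8.51%) and 3 fell (3.19%), with a median of 0.02. After Pwp1, Nmd3, an export adaptor of the large subunit, rose from 80.8 and 96.5 to 120 and 148 CPM (log2 fold change 0.60), and Wdr74 from 360 and 384 to 457 and 532 CPM (0.41). Rrp1b (-0.82), Nop2 (-0.46) and Nolc1 (-0.34) fell, and of the 11 only Pwp1 passed with DESeq2 or in the fit of 8 sums. The nucleolar proteins Ncl (0.09), Npm1 (-0.06) and Fbl (0.48, adjusted p = 0.116) did not pass. RNA polymerase subunits had 2 of 35 higher (5.71%) and 1 lower (2.86%). Polr1a, the large subunit of RNA polymerase I, fell from 31.4 and 20.5 to 10.2 and 13.2 CPM (-1.14, SE 0.28). None of these 3 passed with DESeq2 or in the fit of 8 sums, where Polr1a had an adjusted p of 0.128. Of 53 DNA replication genes 51 were tested, 6 rose (11.8%) and 3 fell (5.88%), with a median of 0.07. Beside Tk1, these were Tyms, the thymidylate synthase, from 419 and 515 to 741 and 657 CPM (0.59, SE 0.09), which passed with DESeq2 (adjusted p = 0.021), and the fork and origin genes Cdc45 (0.63), Rfc4 (0.73), Pold2 (0.53) and Cdk2 (0.44). Tk1 and Tyms, which both supply thymidylate, were thus higher, while Rrm1, which encodes a subunit of ribonucleotide reductase, fell by 0.79 and the polymerase gene Pold1 by 0.58. Of the 9 replication genes that passed, Tk1 also passed in both other fits. Tyms did not pass in the fit of 8 sums (adjusted p = 0.0505), and the other genes passed in neither. In the mitosis list, 3 of 47 genes rose (6.38%) and none fell, with a median of 0.09. Among them was the phosphatase Cdc25a (150.9 and 153.5 against 199.7 and 230.5 CPM, 0.50). None of the 3 passed with DESeq2 or in the fit of 8 sums.

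Oxidative phosphorylation genes fell more often than rose. Of 71 nuclear-encoded members tested, 7 fell and 2 rose, which is 9.86% lower against 3.49% over all genes, with a median of -0.10 and 47 of 71 below 0. Those that fell were Cox4i1 (1049 and 1161 against 881 and 840 CPM, log2 fold change -0.36), Cox6c (-0.30), Ndufb10 (-0.46), Ndufa5 (-0.52), Ndufa13 (-0.36), Ndufa1 (-0.43) and the succinate dehydrogenase subunit Sdhb (123 and 118 against 77.4 and 85.1 CPM, -0.57). Cox8a went the other way, from 686 and 828 to 1104 and 1115 CPM (0.56, SE 0.08), and it alone of the 9 passed with DESeq2 (adjusted p = 0.0034), while none passed in the fit of 8 sums. Of 7 mitochondrially encoded genes tested, mt-Cytb (8975 and 9703 against 7728 and 7396 CPM, -0.30), mt-Nd5 (-0.32) and mt-Nd2 (-0.28) fell, and mt-Nd1 (0.06), mt-Nd4 (0.00) and mt-Co1 (-0.07) did not pass. None of the 3 that fell passed with DESeq2 or in the fit of 8 sums. The median mitochondrial share of a well was 4.56% and 5.35% in control and 4.34% and 4.93% in NKX1-2 wells.

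Most of the stress and redox genes that passed were higher. Of 25 redox and metallothionein genes tested 5 rose (20%, against 4.55% over all genes) and 1 fell (4%, against 3.49%). At an unadjusted p under 0.05, 7 were higher and 4 lower. Txnrd1, the cytosolic thioredoxin reductase, had 10.2 and 10 CPM in control and 30 and 21.3 CPM in NKX1-2 sums (log2 fold change 1.34, SE 0.29), and it passed in the fit of 8 sums (adjusted p = 0.0376) but not with DESeq2 (adjusted p = 0.558). Nfe2l2, the factor of the antioxidant response, had 4.62 and 5.50 against 11.4 and 11.1 CPM (1.15, SE 0.39). Sod2 (0.37), Mt1 (0.23) and Mt2 (0.25) rose by less, and Prdx2 fell by 0.58. None of these 5 passed with DESeq2 or in the fit of 8 sums. Of 29 integrated stress response genes tested 4 rose (13.8%) and 1 fell (3.45%). The serine synthesis enzymes Psat1 (306 and 435 against 558 and 561 CPM, 0.61) and Psph (18.5 and 21 against 38.5 and 43.8 CPM, 1.06) rose with Nupr1 (0.96) and Sesn2, while the tRNA synthetase Eprs fell by 0.44. None of the stress response genes passed with DESeq2 or in the fit of 8 sums, and in wells with Xist alone Nupr1 had 0.20 (adjusted p = 0.809). Apoa1, an apolipoprotein, had 2.31 and 2 CPM in control and 13.1 and 19.1 CPM in NKX1-2 sums (2.85, SE 0.44, adjusted p = 2.48e-08), with a count in 4 and 3 of 48 control wells against 16 of 48 and 19 of 47 NKX1-2 wells. At a fixed depth its shares were 4.9% and 2.5% against 20.5% and 23.4%, and it passed in the fit of 8 sums (adjusted p = 0.0049).

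The remaining lists had counts to be read against 4.55% higher and 3.49% lower over all genes. In the splicing and hnRNP list 3 of 83 tested genes rose (3.61%) and 4 fell (4.82%), shares near those over all genes, among them Hnrnpc, from 1860 and 2003 to 1396 and 1572 CPM (log2 fold change -0.38). In the nuclear pore list 3 of 41 rose, Nup214, Nup85 (0.53) and the export factor Rae1 (0.41), and none fell. Mediator had Med31 higher (0.57) and Med21 and the kinase module cyclin gene Ccnc (41.1 and 49 against 19.5 and 20.8 CPM, -1.16) lower of 30. Of 41 proteasome genes 3 rose and 3 fell, and among assembly chaperones Psmg4 (-0.62) fell with Psmg3. Translation factors had 4 of 49 higher and 4 lower, and within eIF3 the subunits Eif3e and Eif3k (-0.32) fell while Eif3g (0.36) rose. Of 78 cytosolic ribosomal protein genes 1 rose and 4 fell, with a median of -0.09 and 60 of 78 below 0. Their summed level was 106220 and 108740 CPM in control and 101480 and 99580 CPM in NKX1-2 sums. Junction and polarity genes had Ezr (1.08) and Atp1b1 higher and the polarity kinase Prkcz (-0.59) lower of 30, and the adhesion protein Cdh1 had -0.01. Among lists of earlier stages, Omt2b (1.03, 40.2% of its sequence shared, and 0.07 with adjusted p = 0.957 in wells with Xist alone) alone passed of 17 maternal genes and Sp110 (0.62, 55.5% shared) of 11 genes of the 2-cell stage. Of the genes that passed in these lists, Hnrnpa2b1, Hnrnph3, Prpf38a, Nup214, Med21, Psmg3 and Eif3e also passed in both other fits and Ccnc in the fit of 8 sums, and the other genes in neither. None of 59 chromatin enzymes and 11 interferon and MHC genes passed in the edgeR fit, with DESeq2 or in the fit of 8 sums, while 11 and 4 of them had an unadjusted p under 0.05 by edgeR.

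**Figure D4:**
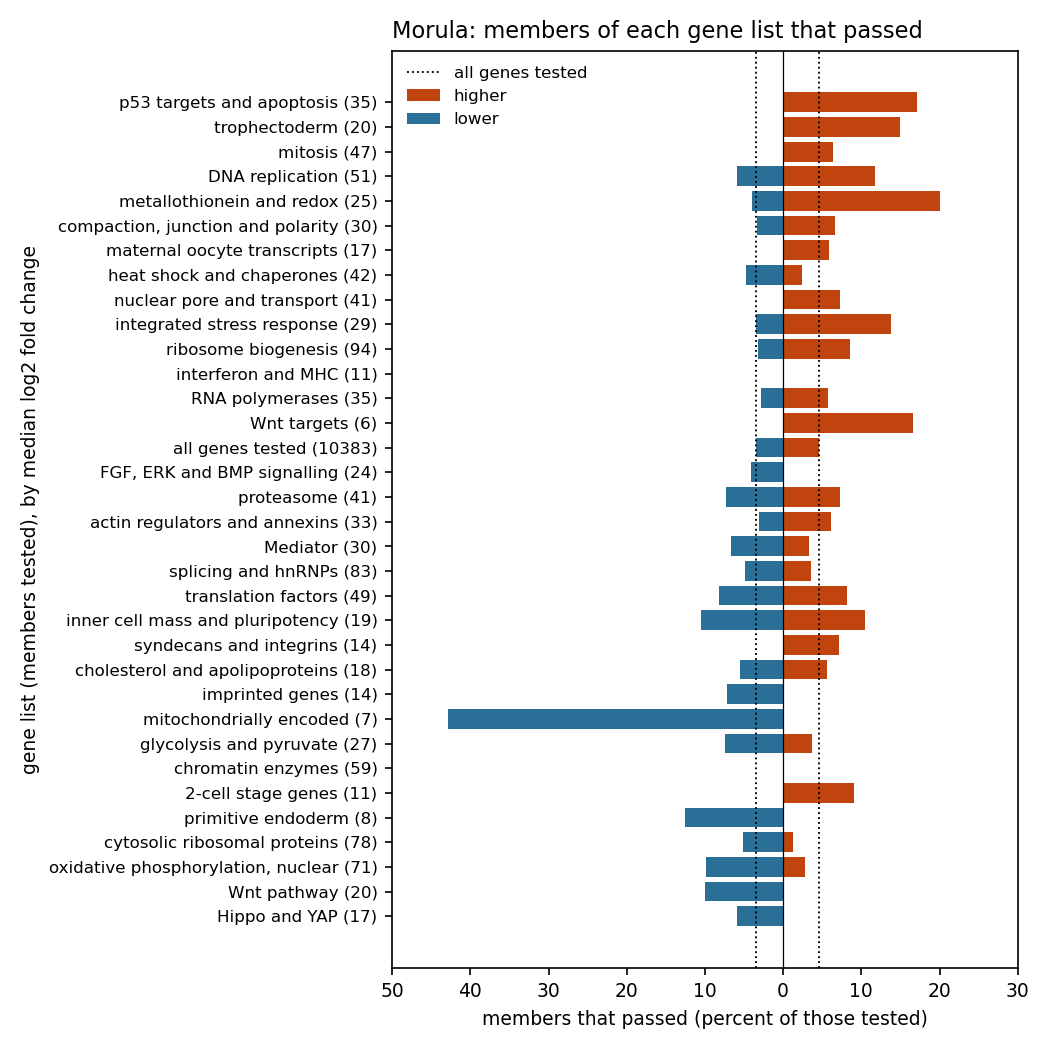
For each gene list, bars give the percent of tested members that rose (right, orange) or fell (left, blue) in NKX1-2 morula wells, with the number tested in brackets and lists ordered by median log2 fold change. Dotted lines mark the shares over all genes tested (4.55% higher, 3.49% lower). The metallothionein and redox list reaches 20% higher and the p53 list 17.1%, and the mitochondrially encoded list rests on 7 genes.

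Of 341 genes tested on the X chromosome, 22 fell (6.45%, against 3.49% over all genes) and 7 rose (2.05%, against 4.55%), and their median was -0.09. In the fit of 8 sums, 1 of 364 fell and 1 rose. The median was -0.11 on plate 1, where the sex of the wells differed most, and -0.05 on plate 2. Within wells with Xist alone it was 0.01, with 1 of 267 lower (0.375%, against 1.11% over all genes), and within wells with Y-linked counts alone -0.04, with 1 of 173 lower (0.578%, against 1.86%). The X-linked ribosomal protein genes Rpl39 (-0.30) and Rps4x (-0.28, 45.6% of its sequence shared) are among those that fell.

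The effect in the morula was set beside that in the blastocyst, measured on separate plates with the same barcodes. Of the 24 genes named for the size of their change, 23 had the same sign in the blastocyst, all but Tspan17, and 9 passed there, against 0.727% of all genes. In the blastocyst the log2 fold change of Acyp1 was -2.66 (adjusted p = 0.0084), that of Med21 -1.93 (adjusted p = 0.00092), of Rab26os 2.09 (adjusted p = 0.0077) and of Nup214 1.33 (adjusted p = 0.01). None of the 24 differed between stages when the difference was tested, the lowest adjusted p being 0.335, and over all genes 2 of 10873 did (0.0184%). Of the genes that passed in the morula and had a value in both fits, 654 of 829 (78.9%) had the same sign in the blastocyst, against 59.7% of all 10058 genes tested in both.

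Since NKX1-2 is a homeodomain protein and the study concerns Wnt, the 250 bases before the RefSeq start were searched on both strands for TAATTA and CTTTGAT. A window was found for 6935 of the 10383 genes. TAATTA, which reads the same on both strands, was in 2.19% of all windows, in 1.42% of those of genes that rose and in 1.95% of those of genes that fell. The shares for CTTTGAT were 2.25%, 1.99% and 1.95%. Neither motif was in any of the 23 windows of the 24 genes named for the size of their change. Of the 10 genes with TAATTA that passed, Lig3 and Txnrd1 also passed in the fit of 8 sums. Lig3, a DNA ligase gene, fell from 85.8 and 39 to 41.9 and 21.3 CPM (log2 fold change -0.97). The Txnrd1 window is shown as the example of a match, on the plus strand (chr10:82833701-82833950, GRCm38.p6), with TAATTA in capitals, its last base 68 bases before the start.
Txnrd1: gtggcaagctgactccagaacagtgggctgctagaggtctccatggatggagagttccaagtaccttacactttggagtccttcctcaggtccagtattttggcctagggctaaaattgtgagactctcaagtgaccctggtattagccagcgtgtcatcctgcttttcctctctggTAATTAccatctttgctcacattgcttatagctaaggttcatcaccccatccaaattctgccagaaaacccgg
A match of these letters describes the window only.

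**Figure D5:**
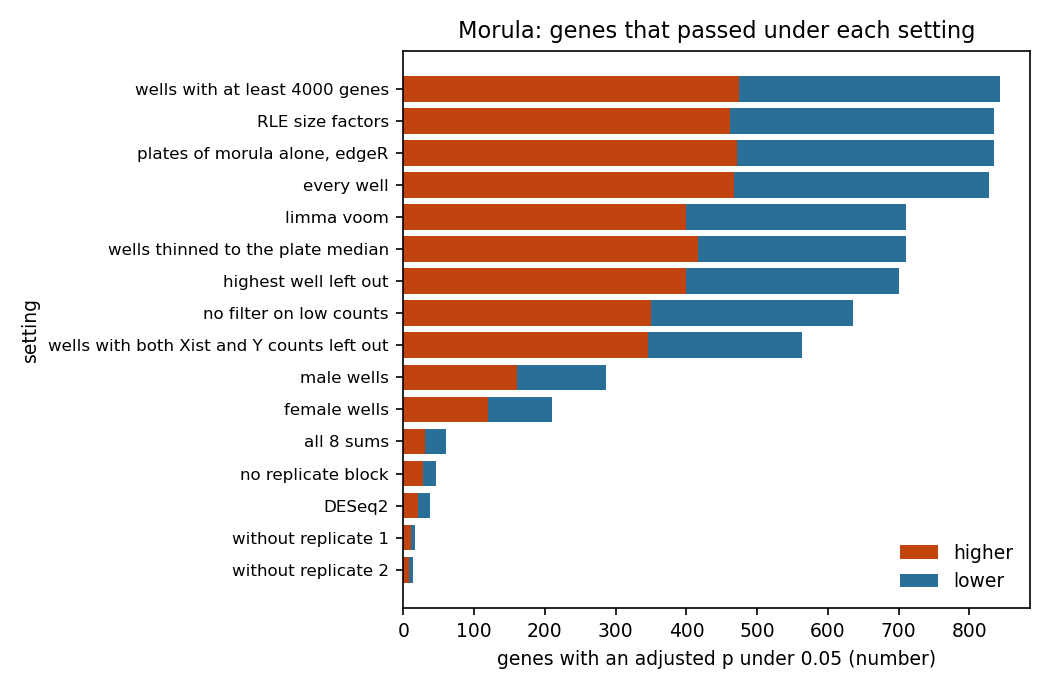
Bars give the number of genes with an adjusted p under 0.05 under each setting, orange for higher and blue for lower in NKX1-2 wells. The fit described gives 834 genes, RLE scaling 835 and limma voom 710, while DESeq2 (38), the fit of 8 sums (60) and the fit without the plate as a block (46) call far fewer.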

How the data were processed

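PolyA RNA of morula wells was measured on 2 plates. The authors deposited raw counts, whole numbers for each gene in each well. Per the submitters' processing notes, TopHat2, GRCm38 and mm10 were used, with no role given. How reads were counted, with or without strand and molecule tags, is not given in the sources used here. Of 55453 genes, 54586 (98.4%) matched GENCODE M21 by symbol. The 344 genes from U2af1 to V1rg10 have no count in the morula plates, against 1.68% and 1.67% of the blastocyst counts, and were left out.

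Counts of wells with at least 2000 detected genes were summed per plate and morpholino, filtered with filterByExpr and scaled by TMM. The model was fitted with edgeR 4.0.16 (robust quasi-likelihood, plate as a block, limma 3.58.1, R 4.3.3), and a gene passed at an adjusted p (Benjamini-Hochberg) below 0.05. The pairing comes from the design, since each plate gave a control and an NKX1-2 sum, whose deviations correlated at 0.267. Settings tried beside it were DESeq2 1.42.0, limma voom, RLE scaling, no filter, other well minimums, thinned wells, the highest well left out, 1 sex, 8 sums, no block and each plate left out. Where 1 morula plate was left, its sums were assumed to vary like those of the blastocyst. In a simulation of this comparison (9974 genes, 200 changed), the fit found 65.7% of 2-fold and 97.9% of 4-fold changes, and called 6 unchanged genes. The simulated counts had only the spread put into them, so these values do not check the spread estimated in the real sums. How many calls in the real sums are false cannot be read from them. For shares, wells were thinned to 26693 counts, the 10th percentile.

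Named genes were the 12 with the largest change in each direction that passed, moved alike on both plates, still passed with the highest well left out, reached 20 CPM in 1 group's mean and had a gene name, then up to 3 members per list with a call and 24 fixed genes. Other members that are named, and the 27 genes that passed in 3 fits, were added after their values were seen. The wells compared and the 37 gene lists were chosen with earlier results of these data known. Shared sequence was taken as the share of 31-base words in the transcripts of a gene that another gene also holds. Well classes come from Xist and from Eif2s3y, Ddx3y, Kdm5d and Uty. Doublets were not called. A gene of the group of 27 is not reported here.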

Additional observations from a re-analysis of the deposited data

Results flagged for a closer look

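The effect of the morpholino differed between stages for 2 of 10873 genes by the edgeR test of the difference with Benjamini-Hochberg adjustment. Apoa1 rose in the morula, from 2.31 and 2.00 CPM in the control sums to 13.1 and 19.1 CPM in the NKX1-2 sums, and fell in the blastocyst, a difference of -4.218 on the log2 scale (blastocyst minus morula). 4930500L23Rik, a gene without a name of its own, had 44.3 and 46.0 CPM in control and 47.8 and 44.7 CPM in NKX1-2 morula sums (log2 fold change 0.04), and was higher with the NKX1-2 morpholino in the blastocyst, a difference of 2.249.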

How the results depend on the processing

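Of the 834 calls, RLE scaling, every well and wells of at least 4000 genes kept 823, 828 and 823. The number of calls fell to 38 with DESeq2 (20 higher, 18 lower) and to 60 in the fit of 8 sums (30 higher, 30 lower). Without the plate as a block the fit called 46 (28 higher, 18 lower), all among the 834. Leaving out 1 plate gave 13 to 17 calls (8 to 11 higher, 5 to 6 lower). Wells with Xist alone gave 210 (120 higher, 90 lower) and wells with Y-linked counts alone 287 (160 higher, 127 lower). Leaving out wells with both, an alternative chosen after seeing the data, gave 218 lower. These sex-split sums hold fewer wells. Otherwise the cause of the lower counts was not tested. Of 90 named genes that passed, 15 did so with DESeq2, 27 in the fit of 8 sums and 21 without the block, and in these 3 fits none turned its direction.

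Some values turned their sign. In wells with Xist alone, Sesn2 had -0.037, Tfap2c 0.10, Mdm2 -0.073, Fbl -0.038, Npm1 0.034 and Pou5f1 0.023. With Y-linked counts alone, Gata6 had -0.033, Ncl -0.087 and Pou5f1 0.0050. Pou5f1 also had 0.035 with thinned wells, 0.0045 with the highest well left out and 0.045 with wells of both kinds of counts left out, where Gata6 had -0.010. Over the 2 fits that leave out a plate, Pou5f1 ranged from -0.057 to 0.075, Gata6 from -0.046 to 0.10 and Mdm2 from -0.12 to 0.30. Depth limits genes of a few CPM most, since they rest on few counts per sum.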
